A study of Mus musculus with 23 samples.

Results

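The nascent mesoderm genes Mixl1, Mesp1, Mesp2, Lhx1 and Aplnr were followed across an expression array series on mouse epiblast-like cells, which stand in culture for the pluripotent epiblast just before gastrulation. They were chosen by name as all probe sets that the platform annotation assigns to them, which gave 7 of 45101 probe sets and 5 of the 18194 genes that a probe set names alone. The 2 male embryonic stem cell lines, of C57BL/6 background, had both copies of Wnt3 (Wnt3+/+, here WT) or neither (Wnt3-/-, here KO), and each carried a Blimp1-mVenus reporter transgene. Epiblast-like cells were made with activin A and bFGF on fibronectin and sampled at 0 h, or grown as floating aggregates in medium with LIF and serum replacement and sampled at 12, 24 and 36 h. WT aggregates received no cytokine, BMP4 at 500 ng/ml or WNT3A at 50 ng/ml, and KO aggregates received the same or both cytokines together. Each genotype and each combination of condition and time has 1 array, 23 in all, so no value has a replicate. The labels give 1 line per genotype, so Wnt3 loss and other differences between the lines cannot be told apart.

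At gastrulation, posterior epiblast cells that receive BMP, WNT and Nodal signals form the primitive streak and move through it as nascent mesoderm or definitive endoderm. Mixl1 encodes a paired-type homeodomain factor of the streak. Mesp1 and Mesp2 encode related basic helix-loop-helix factors, Mesp1 of the earliest mesoderm including heart progenitors and Mesp2 of the segmenting presomitic mesoderm. Lhx1 encodes a LIM homeodomain factor of the anterior streak and axial mesendoderm, and Aplnr encodes the receptor for the peptides Apelin (Apln) and Elabela (Apela), needed for movement of mesendoderm cells.

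Signals are the deposited linear intensities, and each gene is compared only with itself. Array medians lay between 36.8 and 41.4, there are no detection calls, and a signal below the median is called dim here. At 0 h all 6 epiblast markers (Pou5f1, Fgf5, Dnmt3b, Otx2, Pou3f1 and Utf1) were above the array median in both lines, with summed signals of 32483 in WT and 33376 in KO. Wnt3 itself read 11.2 to 27.9 in the KO arrays and up to 146 in WT with BMP4 at 36 h. The cytokine labels of 6 KO arrays conflict: those titled WNT3A carry array names with both cytokines, and those titled BMP4+WNT3A carry array names with WNT3A alone. Groups follow the titles and are called the KO arrays titled WNT3A and the KO arrays titled BMP4+WNT3A. The BMP target Id1 goes against the titles at all 3 times, at 5480, 7591 and 9345 in the first group and 186, 256 and 1323 in the second at 12, 24 and 36 h. In untreated KO it read 145, 177 and 224, and in WT with WNT3A 2077 at 36 h. The ratio of 3' to 5' Gapdh signal, a sign of RNA or cDNA length, was 4.03 for WT WNT3A at 24 h, 2.68 for untreated KO at 24 h and 2.30 for untreated WT at 36 h, and at most 1.71 elsewhere.

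The RefSeq promoter table (GRCm38.p6) holds 3 of the 5 genes, Mesp1, Mesp2 and Lhx1, and their 250 bases upstream of the annotated start are printed 5′ to 3′ on the strand of the gene, because Mesp1 and Lhx1 were highest under different cytokines and Mesp2 is the neighbour and paralogue of Mesp1.
Mesp1, chr7:79793591-79793840, minus strand: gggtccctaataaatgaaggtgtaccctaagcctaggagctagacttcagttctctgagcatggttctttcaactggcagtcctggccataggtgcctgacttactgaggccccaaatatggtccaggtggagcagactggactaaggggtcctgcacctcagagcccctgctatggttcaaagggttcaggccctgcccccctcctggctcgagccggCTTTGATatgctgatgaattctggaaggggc
Mesp2, chr7:79810477-79810726, plus strand: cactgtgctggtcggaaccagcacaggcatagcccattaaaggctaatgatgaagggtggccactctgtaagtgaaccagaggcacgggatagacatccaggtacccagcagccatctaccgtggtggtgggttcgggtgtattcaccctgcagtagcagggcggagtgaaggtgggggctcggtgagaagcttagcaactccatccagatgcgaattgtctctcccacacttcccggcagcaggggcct
Lhx1, chr11:84525535-84525784, minus strand: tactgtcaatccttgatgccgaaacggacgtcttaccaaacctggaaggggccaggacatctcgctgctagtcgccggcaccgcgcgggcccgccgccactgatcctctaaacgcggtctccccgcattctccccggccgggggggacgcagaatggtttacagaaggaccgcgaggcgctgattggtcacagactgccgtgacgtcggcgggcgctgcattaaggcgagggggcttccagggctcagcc
Capitals mark matches to 3 motifs searched on both strands, CTTTGAT for the TCF/LEF effectors of WNT signalling, GGTGTGA for T-box factors and AATCCACA for FOXH1, the DNA-binding partner of Nodal-activated SMADs. The search covered 300 bases, the last 50 after the start.

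Mesp1 had a TCF/LEF match at -31 to -25 from its start and a T-box match on the other strand at 6 to 12 after it. Mesp2 had a FOXH1 match at 25 to 32 after its start, and Lhx1 had no match to the 3 motifs in this window. No 2 matches overlapped. Of all 32851 promoters in the table, 3.73% held the TCF/LEF letters, 3.98% the T-box letters and 0.855% the FOXH1 letters. A match is a description of the letters and does not show binding. Mesp1 and Mesp2 lie next to each other on chromosome 7, on opposite strands, with 0 other genes of the RefSeq table between them.

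Mixl1, the homeobox gene of the streak, was dim at 0 h and stayed dim in KO cells without added WNT3A. Its signal at 0 h was 11.4 in WT and 13.5 in KO. In WT it read 8.88, 18.1 and 545 at 12, 24 and 36 h without cytokine, 27.5, 360 and 1992 with BMP4, and 34.8, 362 and 413 with WNT3A. In KO it read 16, 13.7 and 9.45 without cytokine, 8.94, 12.1 and 13.1 with BMP4, 30.1, 45.3 and 355 in the arrays titled WNT3A, and 27.1, 199 and 468 in those titled BMP4+WNT3A. Both cytokines thus brought Mixl1 to nearly the same signal in WT at 24 h, when untreated WT cells were still dim. By 36 h the untreated WT array was above the WNT3A array. These single arrays differ in Gapdh ratio, at 4.03 for WNT3A and 1.14 for BMP4 at 24 h, and 2.30 for untreated WT at 36 h. All 6 arrays of KO without cytokine or with BMP4 lay between 8.94 and 16, and the 9 arrays above the median were all at 24 or 36 h, in WT or in KO groups with WNT3A in the title. The KO array with BMP4 at 36 h was dim, so no fold against it is given.

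Mesp1, the early mesoderm factor, was read above the array median on 22 of 23 arrays, and its conditions lay furthest apart at 36 h. The 0 h signal was 82.1 in WT and 95.7 in KO. In WT it read 107, 62.7 and 47.2 at 12, 24 and 36 h without cytokine, 86.8, 226 and 3984 with BMP4, and 64.4, 89.3 and 290 with WNT3A. In KO it read 77.2, 53.8 and 47.5 without cytokine, 64.9, 65.3 and 42.8 with BMP4, 64, 103 and 898 in the arrays titled WNT3A, and 58.9, 33.1 and 271 in those titled BMP4+WNT3A. BMP4 in WT gave by far the highest value, and the KO array titled WNT3A at 36 h gave the next. In contrast to Mixl1, Mesp1 was no higher in untreated WT at 36 h than in untreated KO. The 36 h signal with BMP4 was 93.1 times as high in WT as in KO, and 13.7 times as high as with WNT3A in WT. That KO signal was only 1.07 times its array median, so the size of the first fold rests on a low value.

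Mesp2, the segmentation factor, stayed within a narrow range from 33.4 to 115 over all 23 arrays, with a median of 51.3. It read 56.9 in WT and 52.7 in KO at 0 h. In WT it read 73.0, 39.9 and 49.5 at 12, 24 and 36 h without cytokine, 54.2, 85.0 and 89.9 with BMP4, and 55.7, 40.5 and 50.9 with WNT3A. In KO it read 48.2, 45.6 and 55.7 without cytokine, 56.1, 51.3 and 49.5 with BMP4, 59.7, 48.8 and 115 in the arrays titled WNT3A, and 41.9, 33.4 and 48.2 in those titled BMP4+WNT3A. The 3 highest values were the KO array titled WNT3A at 36 h and WT with BMP4 at 36 and 24 h, which were among the arrays where its neighbour Mesp1 was high. No test in any comparison passed for Mesp2.

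Lhx1, the anterior streak factor, has 2 probe sets, and the brighter one is used here. It was dim at 0 h, at 5.13 in WT and 1.71 in KO. In WT it read 4.44, 1.85 and 19.3 at 12, 24 and 36 h without cytokine, 1.18, 6.96 and 300 with BMP4, and 5.50, 58.1 and 508 with WNT3A. In KO it read 2.79, 2.62 and 2.85 without cytokine, 1.69, 1.26 and 9.99 with BMP4, 5.82, 8.88 and 97.0 in the arrays titled WNT3A, and 6.36, 50.2 and 537 in those titled BMP4+WNT3A. At 24 h only WT with WNT3A and the KO array titled BMP4+WNT3A were above the array median, and at 36 h WT with BMP4 and the KO array titled WNT3A had joined them. The untreated WT array at 36 h, where Mixl1 and Aplnr had risen, was still dim for Lhx1. The other Lhx1 probe set exceeded the array median on 1 array and failed the filter on low signals, with its 3 highest values, 45.6, 27.1 and 21.3, at 36 h in the KO array titled BMP4+WNT3A, WT with WNT3A and WT with BMP4.

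Aplnr, the apelin receptor gene, was dim at 0 h in both lines. It read 6.73 in WT and 7.36 in KO at 0 h. In WT it read 11.4, 11.4 and 350 at 12, 24 and 36 h without cytokine, 8.82, 42.2 and 1965 with BMP4, and 9.71, 434 and 6794 with WNT3A. In KO it read 8.46, 11.6 and 13.6 without cytokine, 5.78, 12.9 and 19.7 with BMP4, 11.4, 25.8 and 484 in the arrays titled WNT3A, and 8.63, 184 and 5753 in those titled BMP4+WNT3A. All 7 arrays at 12 h were dim, and by 36 h only KO without cytokine and KO with BMP4 still were. WNT3A gave a higher signal than BMP4 in WT at 24 and 36 h, by 3.46 times at 36 h, the reverse of Mesp1. The other Aplnr probe set gave the same order at 36 h except that untreated WT and the KO array titled WNT3A changed places, with 149, 826 and 2896 in WT without cytokine, with BMP4 and with WNT3A, and 21, 26.9, 135 and 2288 in KO without cytokine, with BMP4, titled WNT3A and titled BMP4+WNT3A.

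**Figure D1:**
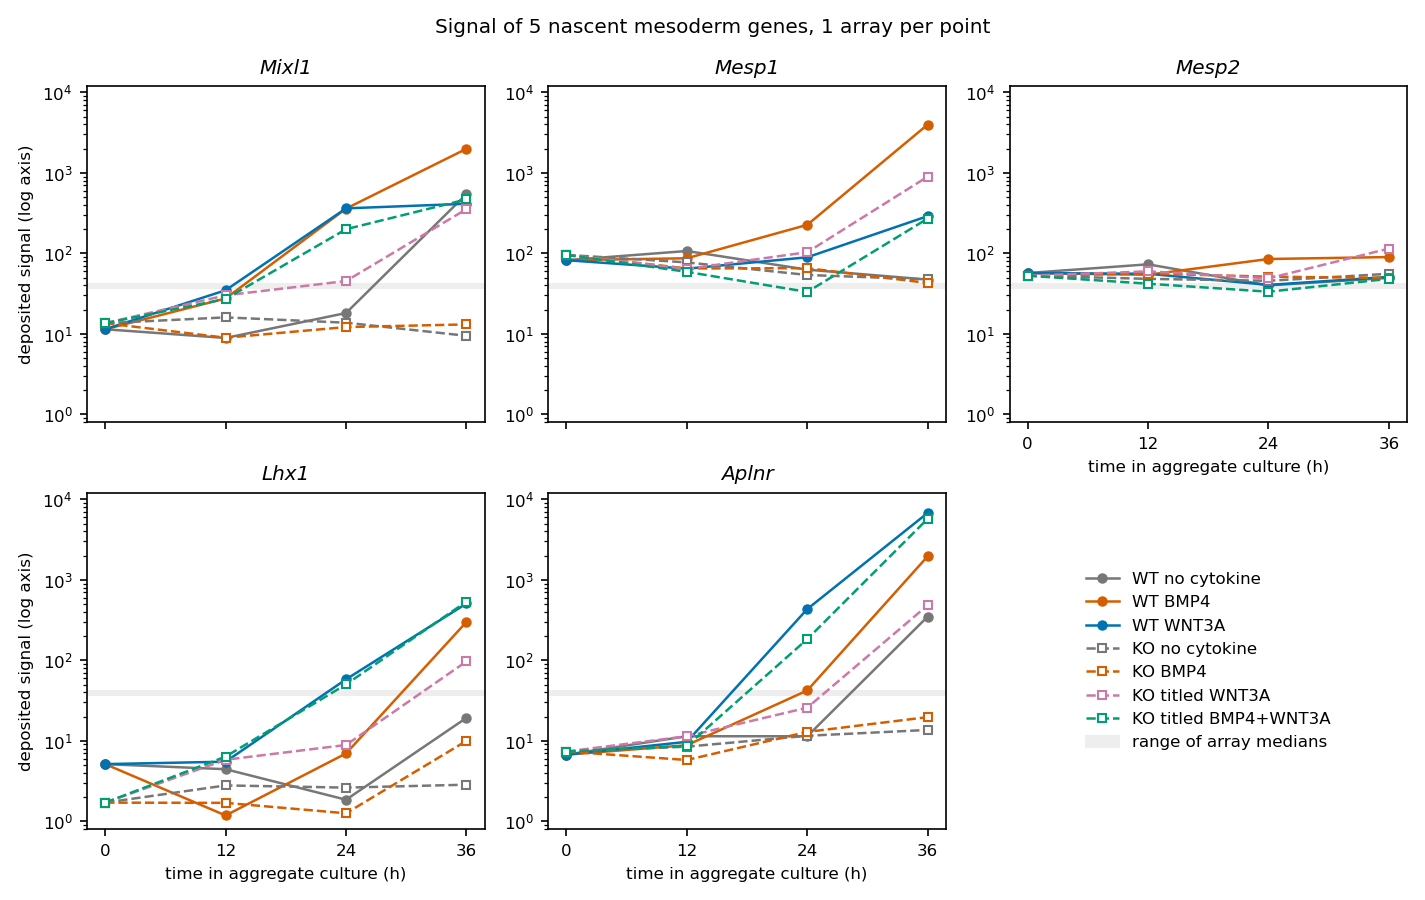
Deposited signal (log axis) of each gene against time in culture (h), 1 point per array, filled circles and solid lines for WT, open squares and dashed lines for KO, with the grey band the range of the array medians. Mesp1 is highest in WT with BMP4 at 36 h (3984), Lhx1 and Aplnr in WT with WNT3A (508 and 6794) and the KO array titled BMP4+WNT3A (537 and 5753), while Mesp2 stays between 33.4 and 115.

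Differences below are on the quantile-normalized log2(signal + 16) scale, which understates changes of dim genes, and are given ± the standard error of a limma fit over 21 arrays with Benjamini-Hochberg adjusted p over 13256 genes and a threshold of 0.05. The 3 times stand in for replicates, so a gene that turns on late varies strongly over them. All 5 genes passed the filter on low signals, Mixl1, Lhx1 and Aplnr through the arrays where they were high, on 9, 6 and 8 of 23 arrays. For bulk RNA, fewer cells with a transcript and less transcript per cell cannot be told apart.

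For 3 of these 5 genes the mean over conditions rose with time in culture, though no rise was detected in untreated KO or KO with BMP4 (below). Averaged over the 7 conditions, Aplnr rose by 4.40 ± 0.76 between 12 and 36 h (adjusted p = 0.000306), Mixl1 by 2.69 ± 0.56 (adjusted p = 0.00125) and Lhx1 by 2.39 ± 0.47 (adjusted p = 0.000903). Mesp1 differed by 1.43 ± 0.56 (adjusted p = 0.0556) and Mesp2 by 0.09 ± 0.13 (adjusted p = 0.646). Thus 3 of 5 genes passed, where 38.7% of all genes tested did. For Mesp1 the call depends on the setting, and 5 of the alternatives put it past the threshold, with adjusted p between 0.000312 and 0.0480.

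The change from 12 to 36 h was then fitted within each condition, in the fit with linear courses. In WT with BMP4, 4 of 5 genes rose, Aplnr by 6.20 ± 0.77, Mixl1 by 5.41 ± 0.89, Mesp1 by 5.17 ± 0.58 and Lhx1 by 4.09 ± 0.48 (the highest adjusted p = 0.00268), against 14.9% of all genes changed in either direction. With WNT3A in WT 2 of 5 rose, against 10.1% of all genes: Aplnr by 8.0 ± 0.77 (adjusted p = 0.000133) and Lhx1 by 4.47 ± 0.48 (adjusted p = 0.000284). There Mixl1 was at 2.92 ± 0.89 (adjusted p = 0.0591) and Mesp1 at 1.76 ± 0.58 (adjusted p = 0.0782). Untreated WT cells had 2 of 5 genes rising, against 4.16% of all genes: Mixl1 by 4.42 ± 0.89 (adjusted p = 0.0159) and Aplnr by 3.65 ± 0.77 (adjusted p = 0.0193). These last 2 calls rest on the 36 h array with the Gapdh ratio of 2.30. In a fit without the 3 arrays of highest ratio the changes were 0.90 ± 1.17 (adjusted p = 0.785) for Mixl1 and 2.11 ± 1.29 (adjusted p = 0.503) for Aplnr. That fit holds untreated WT at 12 and 24 h alone and extrapolates to 36 h, so it cannot test a rise that comes after 24 h.

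In KO cells without WNT3A no rise was detected. In limma 0 of 5 genes passed in untreated KO cells, where 2.96% of all genes changed, and 0 of 5 in KO cells with BMP4, where 1.4% did, with 0 of 5 at an unadjusted p under 0.05 in both. With BMP4 in KO the changes were 0.23 ± 0.89 for Mixl1, -0.48 ± 0.58 for Mesp1, 0.55 ± 0.48 for Lhx1 and 0.71 ± 0.77 for Aplnr. The intervals that cover 95% reach up to 2.16 for Mixl1 and 2.38 for Aplnr. In the KO arrays titled WNT3A 3 of 5 genes rose, against 2.86% of all genes: Aplnr by 4.09 ± 0.77 (adjusted p = 0.0169), Mesp1 by 3.45 ± 0.58 (adjusted p = 0.00995) and Lhx1 by 2.35 ± 0.48 (adjusted p = 0.0289). In those titled BMP4+WNT3A 3 of 5 rose, against 9.47% of all genes: Aplnr by 7.82 ± 0.77 (adjusted p = 0.000201), Lhx1 by 4.44 ± 0.48 (adjusted p = 0.000305) and Mixl1 by 3.27 ± 0.89 (adjusted p = 0.0384). Of these calls Lhx1 in the first group was lost with an offset of 64 (adjusted p = 0.0901) or no filter (adjusted p = 0.0544), and Mixl1 in the second with no filter (adjusted p = 0.0735) or no prior trend (adjusted p = 0.0588). With the labels exchanged the values of the groups change places. Then Mesp1 passed under both cytokines but not under WNT3A (adjusted p = 0.0842), and Mixl1 under WNT3A but not under both (adjusted p = 0.103). Mesp2 did not pass in any of the 7 conditions, and its largest change was 0.76 ± 0.28 in the KO arrays titled WNT3A (adjusted p = 0.180).

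**Figure D2:**
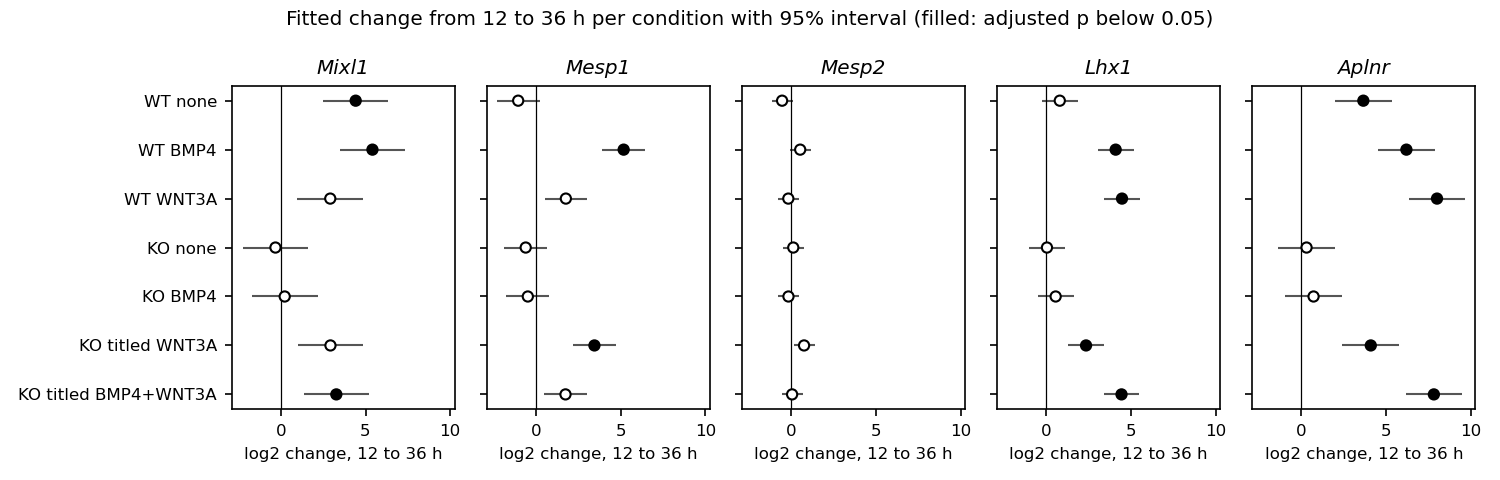
Fitted log2 change from 12 to 36 h of each gene in each of the 7 conditions, with 95% intervals as bars and filled points for adjusted p below 0.05. Mixl1, Mesp1, Lhx1 and Aplnr rise in WT with BMP4 (5.41, 5.17, 4.09 and 6.20), none passes in KO without cytokine or with BMP4, and Mesp2 stays between -0.54 and 0.76.

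What the loss of Wnt3 changed under BMP4 was asked by setting KO with BMP4 against WT with BMP4. Averaged over the 3 times, Mixl1 was lower in KO (difference -3.54 ± 0.85 log2 units, adjusted p = 0.0182), lower at all 3 times, and 1 of 5 genes passed where 7.23% of all genes did. Mesp1 differed by -2.71 ± 0.86 (adjusted p = 0.0684), Aplnr by -2.30 ± 1.16 (adjusted p = 0.267), Lhx1 by -1.29 ± 0.72 (adjusted p = 0.328) and Mesp2 by -0.44 ± 0.21 (adjusted p = 0.223). The Mixl1 call was lost without the 24 h arrays (adjusted p = 0.264), without the 36 h arrays (adjusted p = 0.0826), without the 6 KO arrays of conflicting labels (adjusted p = 0.0551) and in a fit of these 6 arrays alone (adjusted p = 0.171), with a difference between -2.31 and -3.54 in each.

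The difference in the change from 12 to 36 h, a comparison added after the values were seen, passed for 3 of 5 genes, where 0.988% of all genes passed. The rise was smaller in KO than in WT for Mesp1 (-5.66 ± 0.82, adjusted p = 0.0209), Aplnr (-5.48 ± 1.08, adjusted p = 0.0410) and Lhx1 (-3.54 ± 0.68, adjusted p = 0.0410). For Mixl1 the difference was -5.18 ± 1.26 (adjusted p = 0.0785), and it passed without the 3 arrays of highest Gapdh ratio (adjusted p = 0.0246). Without the 6 KO arrays of conflicting labels Mesp1 passed (adjusted p = 0.0113), and Lhx1 (adjusted p = 0.0690) and Aplnr (adjusted p = 0.0675) did not. With no filter on low signals none of the 3 passed (adjusted p = 0.0577 for Mesp1, 0.0909 for Lhx1 and 0.107 for Aplnr).

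Without cytokine, KO and WT differed in 0 of 5 genes over the mean of the times in limma (0 of 5 at an unadjusted p under 0.05), and 0.0981% of all genes passed. The largest difference was -1.40 ± 0.85 for Mixl1 (adjusted p = 0.516). For the change over time 0 of 5 passed as well, against 0.189% of all genes, with 2 of 5 at an unadjusted p under 0.05: Mixl1 at -4.74 ± 1.26 (adjusted p = 0.222) and Aplnr at -3.35 ± 1.08 (adjusted p = 0.342). In the single arrays at 36 h KO stood at -4.36 and -3.52 from WT for these 2 genes.

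**Figure D3:**
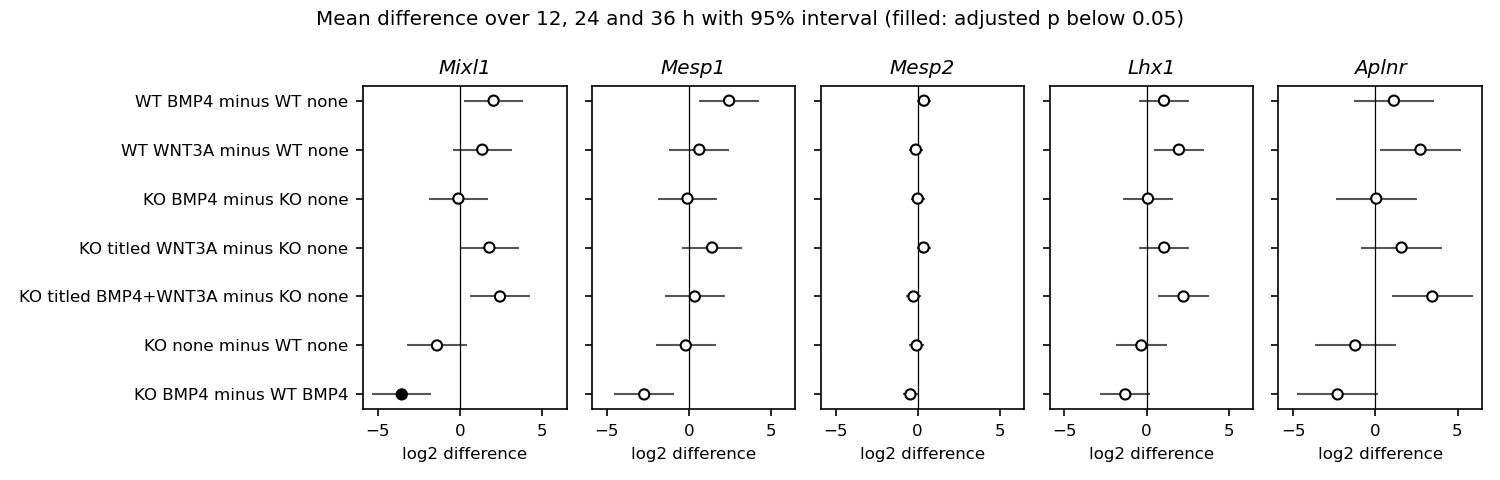
Mean log2 difference over 12, 24 and 36 h for 7 comparisons of each gene, with 95% intervals as bars and filled points for adjusted p below 0.05. Mixl1 in KO with BMP4 against WT with BMP4 (-3.54) is the 1 filled point, and the intervals of Mesp2 are the narrowest.

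What each cytokine changed was tested against the untreated arrays of the same line, which BMP4 and WNT3A share as control. In WT, BMP4 passed for 0 of 5 genes in limma over the mean of the times, where 3.42% of all genes passed. Mesp1 was at 2.45 ± 0.86 (adjusted p = 0.143) and Mixl1 at 2.05 ± 0.85 (adjusted p = 0.223), and these 2 of 5 had an unadjusted p under 0.05. WNT3A in WT also passed for 0 of 5, against 0.483% of all genes, and Aplnr at 2.74 ± 1.16 (adjusted p = 0.307) and Lhx1 at 1.97 ± 0.72 (adjusted p = 0.246) were the 2 of 5 with an unadjusted p under 0.05. In single arrays at 36 h, BMP4 stood above untreated WT by 5.98 log2 units for Mesp1, and WNT3A by 4.26 for Aplnr and 3.75 for Lhx1. Mixl1 with WNT3A stood at 3.47 from untreated WT at 24 h and at -0.45 at 36 h. In the fit with linear courses, which takes each gene's course out of the spread, 3 genes passed for BMP4 (Mixl1, Mesp1 and Lhx1) and 2 for WNT3A (Lhx1 and Aplnr), with the same differences. That fit also called more of all 13256 genes, 941 for BMP4 and 601 for WNT3A, against 453 and 64 in the main fit.

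The change over time differed from untreated WT cells for Mesp1 under BMP4, by 6.23 ± 0.82 (adjusted p = 0.0126), 1 of 5 genes where 0.513% of all genes passed. Under WNT3A it differed for Lhx1, by 3.67 ± 0.68 (adjusted p = 0.0412), 1 of 5 genes where 0.558% passed, and Aplnr was at 4.35 ± 1.08 (adjusted p = 0.117). Without the 3 arrays of highest Gapdh ratio, among them untreated WT at 36 h and WNT3A in WT at 24 h, Mesp1 was at 4.66 ± 1.35 (adjusted p = 0.169) and Lhx1 at 3.05 ± 1.07 (adjusted p = 0.347), so both calls were lost. The Lhx1 call was also lost with an offset of 1 (adjusted p = 0.173), no filter (adjusted p = 0.0930), no prior trend (adjusted p = 0.0684) or the 6 KO arrays in doubt left out (adjusted p = 0.0688). BMP4 and WNT3A in WT did not differ past the threshold for any gene (0 of 5, against 0.747% of all genes, with Mesp2 alone at an unadjusted p under 0.05). The interval of BMP4 minus WNT3A ran from -0.01 to 3.64 for Mesp1 and from -4.07 to 0.84 for Aplnr.

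In KO cells BMP4 alone gave differences close to 0 for all 5 genes. In limma 0 of 5 passed, where 0.558% of all genes passed (0 of 5 at an unadjusted p under 0.05), with differences from -0.09 ± 0.85 for Mixl1 to 0.09 ± 0.72 for Lhx1. These intervals are wide, from -1.89 to 1.71 for Mixl1 and from -2.40 to 2.51 for Aplnr. The BMP4 response in KO minus that in WT passed in limma for 0 of 5, with 0 at an unadjusted p under 0.05, and 0% of all genes passed (781 at an unadjusted p under 0.05). Its values were -2.53 ± 1.22 for Mesp1 (adjusted p = 0.837) and -2.14 ± 1.2 for Mixl1 (adjusted p = 0.872).

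For KO cells given WNT3A, alone or with BMP4, each group of conflicting labels was set against untreated KO. The KO arrays titled BMP4+WNT3A gave Aplnr 3.47 ± 1.16 (adjusted p = 0.0896), Mixl1 2.44 ± 0.85 (adjusted p = 0.104) and Lhx1 2.25 ± 0.72 (adjusted p = 0.0781), so 0 of 5 passed, with 3 of 5 at an unadjusted p under 0.05, against 6.77% of all genes. The arrays titled WNT3A gave Mixl1 1.79 ± 0.85 (adjusted p = 0.218) and Mesp1 1.42 ± 0.86 (adjusted p = 0.356), 0 of 5 genes, with 0 at an unadjusted p under 0.05, against 9.51% of all genes. For the change over time, Aplnr (7.52 ± 1.08, adjusted p = 0.0138) and Lhx1 (4.40 ± 0.68, adjusted p = 0.0165) differed from untreated KO in the arrays titled BMP4+WNT3A, 2 of 5 genes against 0.973% of all genes. In those titled WNT3A 0 of 5 passed in limma, with 4 of 5 at an unadjusted p under 0.05, against 0.0528% of all genes, and Mesp1 had the largest difference at 4.06 ± 0.82 (adjusted p = 0.119). With the labels exchanged the values of the 2 groups change places. The 2 groups themselves differed in 0 of 5 genes, against 0.339% of all genes, with Mesp2 alone at an unadjusted p under 0.05 (-0.62 ± 0.21, adjusted p = 0.423).

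The KO arrays titled BMP4+WNT3A lay close to WT with WNT3A for every one of the 5 genes at 36 h. The WT signal over the KO signal was 0.883 for Mixl1, 1.07 for Mesp1, 1.06 for Mesp2, 0.946 for Lhx1 and 1.18 for Aplnr. At 24 h they lay further apart, at 1.82 for Mixl1, 2.69 for Mesp1, 1.21 for Mesp2, 1.16 for Lhx1 and 2.36 for Aplnr. The WT array at 24 h is the one with the Gapdh ratio of 4.03. Over the 3 times WT was higher by 0.32 ± 0.85 for Mixl1, 0.45 ± 0.86 for Mesp1, 0.20 ± 0.21 for Mesp2, 0.04 ± 0.72 for Lhx1 and 0.50 ± 1.16 for Aplnr, all below their standard errors, and the 95% intervals allow up to 2.12 for Mixl1 and 2.96 for Aplnr. The KO arrays titled WNT3A, which like WT with BMP4 were high for Id1, were below it at 36 h for 4 of the 5 genes. WT with BMP4 was 5.62 times as high for Mixl1, 4.44 times for Mesp1, 3.10 times for Lhx1 and 4.06 times for Aplnr, and 0.785 times for Mesp2.

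**Figure D4:**
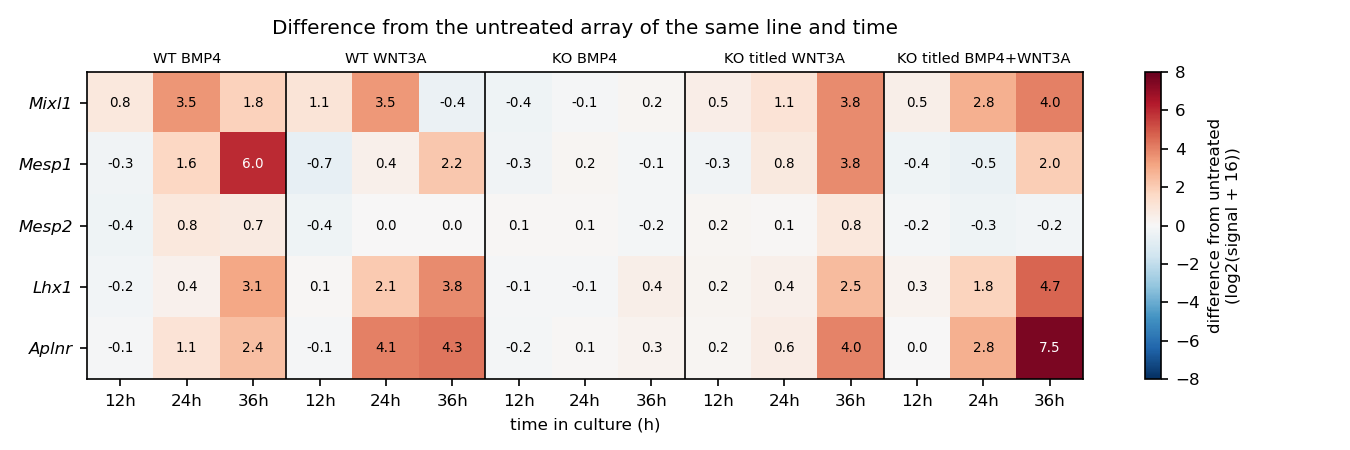
Difference of each array from the untreated array of the same line and time, in log2(signal + 16), for the 5 genes (rows) and 5 treatments at 12, 24 and 36 h (columns), red for higher and blue for lower. KO with BMP4 stays near 0 for all 5 genes, and the largest values are Aplnr in the KO array titled BMP4+WNT3A (7.55) and Mesp1 in WT with BMP4 (5.98), both at 36 h.

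Ordered by the mean over the 3 times, Mixl1 and Mesp1 were highest in WT with BMP4, and Lhx1 and Aplnr in WT with WNT3A followed by the KO arrays titled BMP4+WNT3A. For Mixl1, Mesp1, Lhx1 and Aplnr the 2 lowest conditions were untreated KO and KO with BMP4, with untreated WT just above them. No neighbours in these orders differed beyond their spread, and the lowest adjusted p among the neighbours was 0.486, for Mesp2 between the KO arrays titled WNT3A and untreated WT.

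Of the genes for the ligands of the Aplnr receptor, both were above the array median at 12 h in WT with either cytokine, when Aplnr was dim. They were already above it at 0 h, Apln at 61.8 in WT and 50.6 in KO, and Apela at 484 and 405. At 12 h without cytokine Apln read 85.0 in WT and 74.5 in KO, and Apela 592 and 478. In WT with BMP4 Apln read 128 and Apela 1389 at 12 h, with Aplnr at 8.82. With WNT3A Apln read 383 and Apela 2062, with Aplnr at 9.71. Averaged over the times 2 of 2 were higher in the KO arrays titled BMP4+WNT3A than in untreated KO, Apln by 3.29 ± 0.69 and Apela by 2.18 ± 0.39, and 2 of 2 in those titled WNT3A, Apln by 2.41 ± 0.69 and Apela by 1.70 ± 0.39 (medians 2.73 and 2.06, against -0.02 and -0.01 over all genes, of which 6.77% and 9.51% passed in either direction). Apln was lower in KO with BMP4 than in WT with BMP4 (-3.77 ± 0.69), and read 37.8, 26.2 and 26.7 at 12, 24 and 36 h there.

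Among genes that act with or upstream of the 5, many in the list of primitive streak and Nodal signalling were lower in KO than in WT under BMP4. Of 11 measured streak and Nodal genes 7 were lower in KO, 0 higher, where 7.23% of all genes passed in either direction, with a list median of -1.45 against -0.01 over all genes. These 11 include Wnt3 itself, the gene lost in KO, for which a lower signal there follows from the design. With BMP4 at 36 h Wnt3 read 13.6 in KO and 146 in WT. The WNT target gene Sp5 differed by -5.52 ± 0.85 and the streak gene Evx1 by -5.65 ± 0.59. The ligand gene Wnt8a differed by -4.72 ± 0.60, Fgf8 by -3.28 ± 0.49 and the T-box gene Eomes by -2.27 ± 0.62. Signals of Nodal, Tdgf1 and Foxh1 were less far apart. With BMP4 at 24 h Nodal read 1075 in KO and 1618 in WT, Tdgf1 9476 and 9542, and Foxh1 3040 and 3566. At 36 h with BMP4 they read 1053 and 1235, 7332 and 6562, and 3148 and 3616. At 12 h in WT Evx1 read 685 with BMP4 and 72.5 with WNT3A, where Sp5 read 1024 and 1098. Sp5 and Wnt8a were high by 12 h, at 1024 and 949 in WT with BMP4, when Mixl1, Lhx1 and Aplnr were dim. In untreated WT 7 of the 11 rose from 12 to 36 h and 0 fell, where 4.16% of all genes changed (list median 2.16 against -0.0013 over all genes), Sp5 by 6.29 ± 0.52 and Eomes by 2.84 ± 0.60.

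Of 17 measured genes of nascent mesoderm and migration, 10 rose from 12 to 36 h in WT with BMP4 and 0 fell, where 14.9% of all genes changed, with a median of 1.45 against -0.05 over all genes. They included Hand1 (4.65 ± 0.69) and Isl1 (3.99 ± 0.67), factors of lateral and cardiac mesoderm, and Msgn1 (3.35 ± 0.50) of paraxial mesoderm. Snai1, the repressor of epithelial cadherin, was also among them (3.41 ± 0.50). The gene of that cadherin, Cdh1, read 5367, 6383 and 5442 at 12, 24 and 36 h in WT with BMP4. In WT with WNT3A 4 rose, Rspo3 by 5.41 ± 0.79, Tbx6 by 5.0 ± 0.82, Cdh2 by 3.60 ± 0.56 and Isl1 by 2.33 ± 0.67, and 2 fell, where 10.1% of all genes changed (median 0.45 against -0.04 over all genes). With BMP4 at 36 h Hand1 read 148 in KO and 1261 in WT.

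Of 5 genes of segmentation that passed the filter, the setting in which Mesp2 acts, 3 rose in WT with WNT3A: Dll1 by 3.76 ± 0.77, Notch1 by 2.83 ± 0.46 and Dll3 by 2.01 ± 0.46, where 10.1% of all genes changed (median 2.01 against -0.04 over all genes). The segmentation clock gene Hes7, which failed the filter on low signals, read 377 in WT with WNT3A and 114 in the KO array titled BMP4+WNT3A at 36 h, and at most 6.92 on the other 21 arrays. Mesp2 read 50.9 and 48.2 on those 2 arrays, near its median over all arrays.

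Of 7 measured partners of Lhx1 and genes of the anterior mesendoderm, 2 rose and 1 fell from 12 to 36 h in WT with WNT3A, where 10.1% of all genes changed (median 0.48 against -0.04 over all genes), and in the KO arrays titled BMP4+WNT3A, where 9.47% did (median 0.70 against -0.02). Foxa2 and Chrd, genes of the node and its derivatives, rose by 1.94 ± 0.54 and 3.65 ± 0.45 in the first and by 2.53 ± 0.54 and 4.37 ± 0.45 in the second. Otx2, an epiblast and anterior gene, fell by 2.48 ± 0.50 and 2.91 ± 0.50 (changes of -2.48 and -2.91). In WT with BMP4, where Lhx1 also rose, Foxa2 read 39.4 and Chrd 70.0 at 36 h, against 1520 and 1531 with WNT3A.

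Markers of other cell types moved with these arrays. The 6 epiblast markers summed to 12848 in WT with BMP4 and 28040 in KO with BMP4 at 36 h, and to 22244 and 31128 in untreated WT and KO. Averaged over the times, 3 of the 6 were higher in KO with BMP4 than in WT with BMP4 (Otx2 by 3.06 ± 0.52, Pou3f1 by 2.77 ± 0.33 and Utf1 by 2.12 ± 0.46), where 7.23% of all genes passed. The 3 neural markers with a probe set summed to 840 in untreated KO, 288 in untreated WT, 273 in KO with BMP4 and 51.3 in WT with BMP4 at 36 h. The 5 definitive endoderm markers Sox17, Foxa2, Cer1, Gsc and Hhex summed to 2023 in WT with WNT3A, 2919 in the KO array titled BMP4+WNT3A and 1551 in untreated WT at 36 h, and to between 195 and 336 on the other 4 arrays at that time, with none of them at the signal floor. All 5 were above the array median in the first 2 and 4 in the third. Foxa2, also a gene of the node, gave 1520, 2385 and 1160 of these first 3 sums. In untreated WT at 36 h Gsc read 224, Sox17 73.0, Cer1 17.3 and Hhex 76.6. At 0 h in WT they read 9.25, 83.9, 8.46 and 73.5. The 5 trophoblast markers summed to 1183 in the KO array titled WNT3A and 1753 in WT with BMP4 at 36 h, of which in WT Hand1, also a mesoderm gene, gave 1261, and the 4 cardiac markers to 831, of which Isl1 gave 676. The part of these cells in the signals of the 5 genes was not tested.

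**Figure D5:**
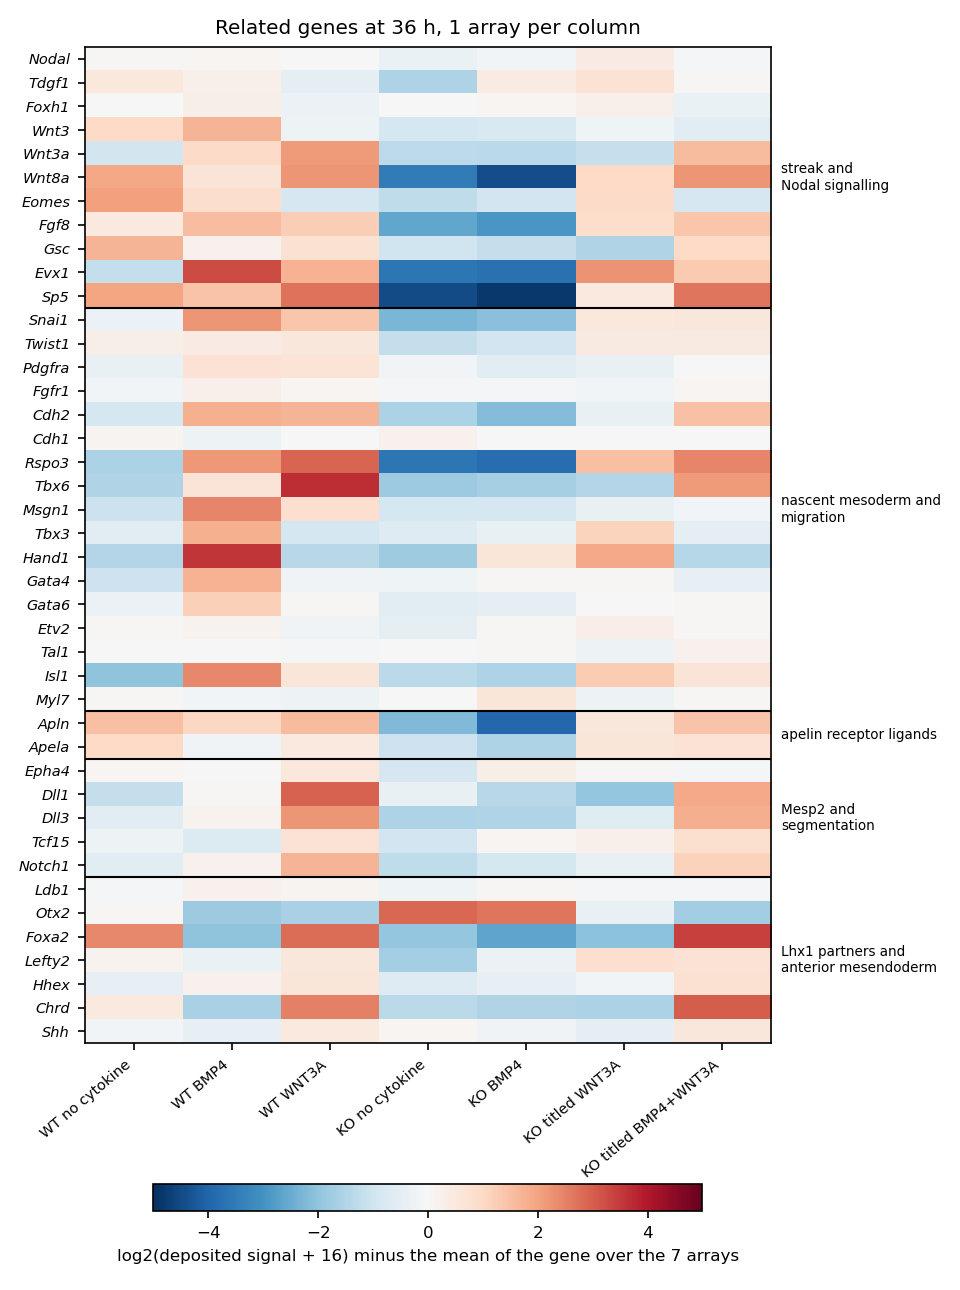
Related genes at 36 h, 1 column per array and 1 row per gene, coloured by log2(signal + 16) minus the mean of that gene over the 7 arrays, red for higher and blue for lower. Hand1, Msgn1 and Isl1 are highest in WT with BMP4, Dll1, Tbx6, Foxa2 and Chrd in WT with WNT3A or the KO array titled BMP4+WNT3A, and Sp5, Wnt8a and Apln are lowest in the 2 KO arrays without WNT3A.

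Across the 23 arrays, which share lines, times and treatments, Lhx1 and Aplnr followed each other most closely (Pearson r = 0.98), and each was the named gene most like the other. Next to Aplnr for Lhx1 came Arg1 (0.97), and next to Lhx1 for Aplnr came Cited2 (0.97). Mixl1 was most like Pdgfrb (0.95) and Crh (0.94), and followed Aplnr at 0.86 and Lhx1 at 0.81. Mesp1 was most like Bmper (0.93), a modulator of BMP signalling, and Prdm14 (0.92), a regulator of germ cell fate, and followed the other 4 members at 0.61 to 0.70. Mesp2 was most like Tcirg1 (0.71) and Mesp1 (0.70), and followed Lhx1 at 0.11 and Aplnr at 0.08. These coefficients, on the log2 scale, describe the arrays only.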

How the data were processed

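Total RNA was amplified as cDNA, labelled with biotin and hybridised to Affymetrix arrays, per the labels. The authors deposited a linear intensity for every probe set, computed by a method not given in the sources used here, and 2.93% of values stand at a floor of 1. The spread of array medians was 0.17 on the log2 scale and that of upper quartiles 0.37, so log2(signal + 16) was quantile normalized, the step set for a spread above 0.2. Of 45101 probe sets 34958 name 1 gene in the platform annotation given, 932 several and 9211 none, and only the first were used, each gene by its probe set of highest mean. Of 18194 genes 13256 exceeded the array median on at least 3 of 23 arrays and were tested.

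Groups follow the sample titles. limma 3.58.1 under R 4.3.3 fitted 21 arrays with 7 conditions and time as a block (12 residual degrees of freedom). Variances were moderated by empirical Bayes with a trend in mean signal. A second fit with a linear course per condition (6 residual degrees of freedom) gave the change from 12 to 36 h. Both steps were tested on simulated data. With 1 array per condition and time, p-values measure the spread over times and conditions within these arrays, whose number limits the precision. Arrays at 0 h entered no test.

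The 5 genes and all lists were chosen with earlier results of these data known. Genes named are the 5, members of the listed groups, and for each of the 5 the genes most correlated over 23 arrays, without clone or locus names. Of the streak list, T has no probe set that names it alone and is not analysed here. Alternatives tried were offsets of 1 and 64, the deposited values without normalization or centred on the median, a filter at the 60th percentile or none, each probe set by itself, no prior trend, array weights, linear courses, only the arrays compared, each time left out, labels of the 6 KO arrays exchanged, and fits without those 6 or without the 3 arrays of highest Gapdh ratio. Differences between conditions in the change over time, and most alternatives for changes over time, were added after the data were seen. Promoters came from RefSeq (GRCm38.p6). Figures were drawn with matplotlib 3.10.9.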

Additional observations from a re-analysis of the deposited data

Results flagged for a closer look

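The change from 12 to 36 h under BMP4 differed between the KO and WT lines for 3 genes, by a test of the difference itself. Mesp1 rose less in KO (difference -5.66, adjusted p = 0.0209), and so did Aplnr (-5.48, adjusted p = 0.0410) and Lhx1 (-3.54, adjusted p = 0.0410). The Mesp1 call was lost with no filter (adjusted p = 0.0577). The Aplnr and Lhx1 calls were lost with an offset of 1 (adjusted p = 0.0555 and 0.0758), no filter (0.107 and 0.0909), no prior trend (0.0755 and 0.0662) and without the 6 KO arrays of doubtful label (0.0675 and 0.0690), and that of Lhx1 also with an offset of 64 (0.0555). The comparison was added after the values were seen, and since each genotype is 1 line, line and genotype cannot be told apart.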

How the results depend on the processing

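Of 905 recomputed values of the 5 genes in the comparisons of means, 875 stayed on their side of the threshold, 4 lost a call, 26 gained one and no called value changed sign, while 27 values that passed in neither fit did. Of 500 values for changes over time, 464 stayed on their side, 27 lost a call, 9 gained one and no called value changed sign, while 5 that passed in neither fit did. Counts of the 5 genes passing that moved by more than 1.5 times were as follows, and smaller moves are not listed. Linear courses raised BMP4 against none in WT to 3, WNT3A against none in WT to 2, the KO arrays titled WNT3A and titled BMP4+WNT3A against untreated KO to 4 and 3, KO against WT with BMP4 from 1 to 4, the difference of the BMP4 responses to 1 and BMP4 against WNT3A in WT to 1. In the same order, calls over all 13256 genes went from 453 to 941, 64 to 601, 1260 to 1715, 898 to 1397, 958 to 1504, 0 to 73 and 99 to 463. The KO arrays titled BMP4+WNT3A against untreated KO also gave 1 with an offset of 1 (902 of all genes) or with array weights (2003), and 0 to 2 when a time was left out. Over all genes 585, 0 and 769 passed there without 12, 24 and 36 h. KO against WT with BMP4 gave 0 to 1 when a time was left out, 0 without the 6 KO arrays (561 of all genes) and 0 with only the arrays compared (117). Over all genes 466, 7 and 846 passed in this comparison without 12, 24 and 36 h. The change over time in untreated WT gave 1 with an offset of 64, and leaving out the 3 arrays whose Gapdh ratio was highest gave 0 (24 of all genes, against 551 in the main fit). Without those arrays untreated WT has no 36 h value, so its change is extrapolated, also in the differences from it. In the difference of changes, BMP4 against none in WT gave 0 without those 3 arrays (2 of all genes, against 68 in the main fit). WNT3A against none in WT gave 0 without those 3 arrays, without the 6 KO arrays, with an offset of 1, with no filter or with no prior trend. KO against WT with BMP4 gave 1 with an offset of 1, without the 6 KO arrays or with no prior trend, and 0 with no filter. With the labels of the 6 KO arrays exchanged, the difference of changes from untreated KO gave 2 for the arrays titled WNT3A and 0 for those titled BMP4+WNT3A. The cause of these shifts was not tested. Leaving out a time from the linear courses was not run, since 2 times per condition leave no residual degrees of freedom. The lowest signals, Lhx1 above all, sit near the floor, where the offset sets the size of a difference.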
